A study of Mus musculus with 14 samples.

Results

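The genes described here are 8 genes of double-stranded RNA (dsRNA) sensing and of the interferon response in mouse embryonic stem cells (ESCs): Ddx58, Ifih1 and Tlr3 (sensors), Mavs (adaptor), Eif2ak2 (effector kinase), Irf7 (transcription factor), and Isg15 and Ifit1 (interferon-stimulated genes). They were chosen by name, and 6 of the 8 were found among the 22376 genes of the RNA-seq table, in which Ddx58 carries its older symbol. Isg15 and Ifit1 were not analysed here at the level of mRNA. RNA-seq libraries of mRNA came from Drosha fl/fl Gt(ROSA)26SorCreERT2 ESCs, with 3 libraries of untreated cells (control) and 3 of cells given 4-hydroxytamoxifen (Drosha-deficient). Degradome-seq, which reads the 5′ ends of polyA-tailed RNAs that carry a 5′ monophosphate, was made from the same kind of cells (2 control and 2 Drosha-deficient libraries) and from Dicer fl/fl ESCs transduced with a GFP retrovirus (2 control libraries) or with a GFP-Cre retrovirus (2 Dicer-deficient libraries).

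4-hydroxytamoxifen was given at 100 nM for 72 h and removed 48 h before harvest, and it switches on CreERT2, which is expressed from the ROSA26 locus. The control cells of the Drosha line had no treatment, so the drug, active Cre and the loss of Drosha cannot be told apart. In the Dicer line both arms were transduced, sorted for GFP at 3 days and cultured for 2 more days. All cells were grown in serum and LIF on Mitomycin C-inactivated mouse embryonic fibroblasts. Nothing in the sources used here says that replicate libraries came from separate cultures, so p-values measure the spread between these libraries, which may be technical.

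As background, cells that detect dsRNA in the cytoplasm use the helicases RIG-I (encoded by Ddx58) and MDA5 (Ifih1), which pass the signal to MAVS on mitochondria. TLR3 reads dsRNA in endosomes and signals through a separate adaptor, and PKR (Eif2ak2) binds dsRNA and shuts down translation by phosphorylating eIF2α. MAVS and TLR3 activate kinases that turn on IRF3 and IRF7, type I interferons are made, and their receptor signals through the kinases JAK1 and TYK2 to induce genes such as Isg15, a ubiquitin-like modifier, and Ifit1, which binds foreign RNA. Pluripotent cells are known for a weak interferon response, and the RNase III enzymes Drosha and Dicer make the miRNAs of these cells.

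The RNA-seq values usable here are means over all 6 libraries, so they give a level and no spread, and neither the order of the genes nor a difference between control and Drosha-deficient cells was tested. The markers placed the libraries as ESCs. All 12 pluripotency markers were above the median gene of the table, from Lin28a (5.96 log2 CPM) to Dppa5a (10.19 log2 CPM), where CPM is the count of a gene scaled to the size of its library. Of 15 fibroblast markers, 13 were at 1 CPM or more, with a summed level of 2682 CPM that fell to 328 CPM without Fn1 (11.20 log2 CPM), and the lowest was S100a4 (−1.94 log2 CPM). Of 8 macrophage and blood markers, Ptprc, Adgre1 and Aif1 were not found in the table and the others ran from Tyrobp (−2.76 log2 CPM) to Cd68 (5.53 log2 CPM). The part of feeder fibroblasts in the levels below was not tested, and in bulk RNA fewer cells of a type and less RNA per cell cannot be told apart. The targeted gene Drosha had a mean of 6.58 log2 CPM and Dicer1 7.27 log2 CPM, which as means over both groups do not check the deletion. Degradome-seq depth, worked out from the steps of the deposited values, was 28682300 to 34547609 reads per library. The paper gives a lower figure for uniquely mapped reads of the Drosha line, and the reason for the difference was not tested.

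The 6 genes fell into an expressed and a barely detected set. Mavs, the adaptor on chromosome 2 (chr2:131234063-131248025, plus strand, GRCm38), had a mean level of 5.45 log2 CPM, or 43.8 CPM. Eif2ak2 (chr17:78852564-78882573, minus strand) had 5.22 log2 CPM, or 37.2 CPM, and Ddx58 (chr4:40203773-40239828, minus strand) had 2.33 log2 CPM, or 5.03 CPM. Among all genes of the table these stood at percentiles 76.0, 73.2 and 49.9, so that the RIG-I gene was at the level of the median gene (2.34 log2 CPM).

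The other sensors and the transcription factor were low. Ifih1 (chr2:62595798-62646255, minus strand) had −2.07 log2 CPM, or 0.239 CPM. Irf7 (chr7:141262706-141266481, minus strand) had −2.11 log2 CPM, or 0.232 CPM, and Tlr3 (chr8:45395665-45411080, minus strand) had −2.83 log2 CPM, or 0.140 CPM. The lowest gene of the table was at 0.105 CPM, so Ifih1 was 2.27 times, Irf7 2.20 times and Tlr3 1.33 times the lowest level listed. Because edgeR's mean log2 CPM includes a small prior count, such values sit near a floor and ratios against them are compressed.

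Per kilobase of the longest annotated transcript, the order was Mavs (14.3 CPM per kb), Eif2ak2 (8.64), Ddx58 (1.30), Irf7 (0.0715), Ifih1 (0.0437) and Tlr3 (0.0319). On this scale the level of Mavs was 1.66 times that of Eif2ak2. The RIG-I gene was 29.7 times the MDA5 gene and 40.7 times Tlr3. Irf7 was below Ifih1 in CPM and above it per kb, by a ratio of Ifih1 to Irf7 of 1.03 and 0.611, so the order of these neighbours is not settled. Of the 6 genes, 3 were at 1 CPM or more, beside 65.0% of all genes, and their median was 0.13 log2 CPM beside 2.34 log2 CPM for all genes.

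**Figure D1:**
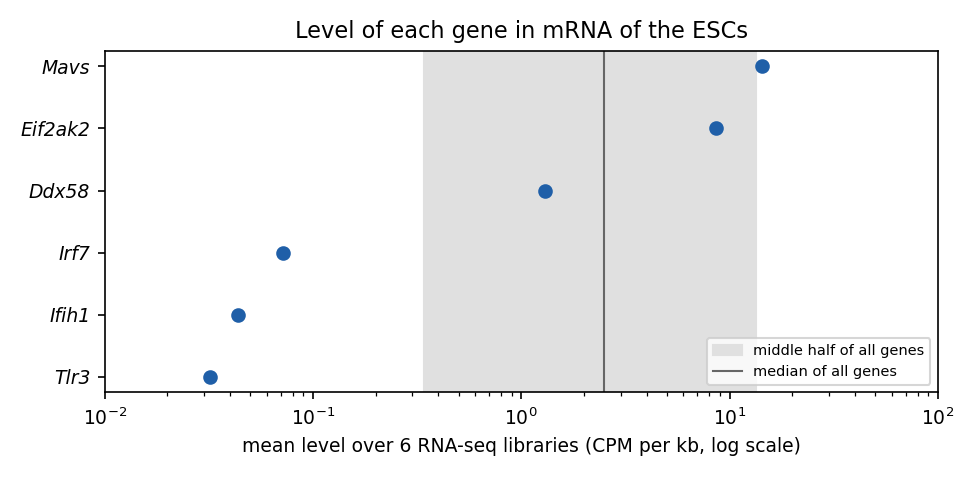
Mean level of the 6 genes over 6 RNA-seq libraries, in CPM per kb on a log axis. The grey band spans the interquartile range of all genes (0.342 to 13.5 CPM per kb) and the line their median (2.48); Mavs lies above the band, Eif2ak2 and Ddx58 inside it, and Irf7, Ifih1 and Tlr3 below it.

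The rest of the pathway showed the same mixture. Other dsRNA sensors and their cofactors were all in the table (13 of 13), with a median of 4.51 log2 CPM (8.37 CPM per kb). The highest was Dhx15 (8.90 log2 CPM) and the lowest Ddx60 (−1.20 log2 CPM), both helicases. Dhx58, another helicase of the RIG-I family, had 1.05 log2 CPM, and Ticam1, the adaptor of TLR3, had 1.53 log2 CPM. Adar, which edits dsRNA, had 5.69 log2 CPM, and Trim25, a ubiquitin ligase of RIG-I signalling, had 7.87 log2 CPM. The list of kinases and factors around MAVS, which also holds genes of DNA sensing, was found in full (12 of 12). Its median was 4.16 log2 CPM (4.94 CPM per kb), from Ikbke (−0.54 log2 CPM) to Tbk1 (5.57 log2 CPM), 2 kinases of IRF3. Irf3 itself had 4.77 log2 CPM, and per length it was at 13.5 CPM per kb beside 0.0715 for Irf7.

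Genes of the 2-5A synthetase (OAS) family, which belongs to a second arm that dsRNA activates, were lower (7 of 7, median 1.36 log2 CPM, 1.33 CPM per kb). They ran from Oasl1 (−0.33 log2 CPM) to Oas1a (2.77 log2 CPM). Enzyme activity was not tested, and Oas1b is annotated as a polymorphic pseudogene. Of 19 interferons, receptors and signalling genes, 15 were in the table (median 3.53 log2 CPM, 3.88 CPM per kb), from Irf2 (0.50 log2 CPM) to Socs3 (7.38 log2 CPM), an inhibitor of JAK signalling. The interferon genes listed (Ifnb1, Ifna4, Ifnk and Ifnl2) were the 4 not found. The receptor kinases Jak1 and Tyk2 had 6.73 and 6.25 log2 CPM. Stat2, a transcription factor below them, had 16.1 CPM per kb.

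Interferon-stimulated genes had the lowest median of the 5 pathway lists. Of 28 genes beside Isg15 and Ifit1, 22 were in the table, with a median of −0.50 log2 CPM (0.321 CPM per kb), and 8 of the 22 (36.4%) reached 1 CPM, beside 65.0% of all genes. The range ran from Mx1 (−3.07 log2 CPM), an antiviral GTPase, to Ifitm2 (7.64 log2 CPM), an entry-blocking membrane protein. Ifitm1 and Ifitm3 of the same family had 7.12 and 7.40 log2 CPM, and Bst2, or tetherin, had 5.98 log2 CPM. Counts of near-identical family members such as the Ifitm and Oas1 genes can share reads, so their separate levels are uncertain. The genes of this list that were not found were Ifit3, Ifit3b, Ifi44, Ifi44l, Mx2 and Usp18.

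**Figure D2:**
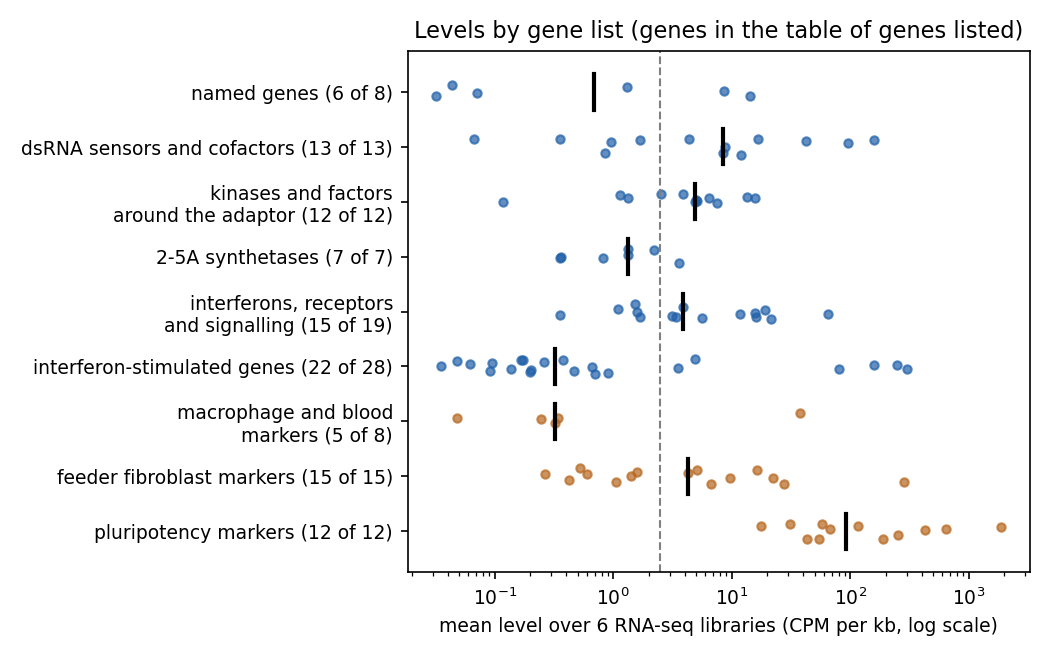
Mean level of each gene, in CPM per kb on a log axis, for those of the 8 genes described here that were in the table (named genes, 6 of 8), 5 pathway lists and 3 lists of cell type markers, with list medians as black bars and the median of all genes (2.48) as a dashed line. Most interferon-stimulated genes lie left of the dashed line, with a few members of the Ifitm family and Bst2 far to its right, and all pluripotency markers lie right of it.

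Degradome-seq was compared between control and deficient cells at pile-up sites, positions where the first bases of many reads stack. The paper kept sites that its classifier found in both control replicates, so sites seen only in deficient cells could be left out. Such a choice leans toward lower values in deficient cells, and its part in the falls below was not tested. The values are RPM, the reads starting at a site scaled to the mapped reads of the library. A site was called when limma on log2(RPM + 0.1) gave an adjusted p (FDR) below 0.05 together with a log2 fold change of more than 1.5 in size, and fold changes are on that scale. Of the 8 genes, only Ifih1 held a site, the same one among the 3919 sites of the Drosha table and the 4666 of the Dicer table. It lies at chr2:62640792 (GRCm38) on the minus strand of the gene, in intron 1 of 15. The genome at this site is soft-masked as a repeat, its first 30 bases occur once on the chromosomes searched, and whether the reads stem from Ifih1 transcripts was not tested.

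The first 30 bases from the Ifih1 site (chr2:62640763-62640792, minus strand) are shown because they hold a stretch, GTGGTGGC in capitals, that recurs at other sites of the pathway.
Ifih1: actcagggcGTGGTGGCacatgcctttaat
The stretch was picked after the sites were seen. It occurred on the read strand in the first 30 bases of 530 sites (13.5%) of the Drosha table, of which 458 were higher and 72 lower in Drosha-deficient cells (median log2 fold change 1.16, beside −0.93 for all sites). In the Dicer table it occurred at 919 sites (19.7%), with a median of 0.21 beside −0.12.

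At the Ifih1 site the control libraries of the Drosha line had 2.96 and 3.63 RPM and the Drosha-deficient libraries 3.35 and 2.54 RPM, from 73 to 106 reads. The groups overlapped, and the difference did not pass the test (log2 fold change −0.16, SE 0.40, 95% interval −0.995 to 0.67, limma adjusted p = 0.741). Of all sites in the Drosha comparison 47.2% were called (37.6% lower and 9.57% higher in Drosha-deficient cells). This split depended on the scaling: limma called 1473 sites lower and 375 higher, 871 and 602 when each library was centred on its median site, and 548 and 265 at a pseudocount of 1 RPM, while edgeR with TMM scaling called 636 lower and 780 higher. Relative to the median site the Ifih1 value was 0.77 higher on the log2 scale, and its sign turned when each library was centred on its median site (0.43) or scaled by TMM in edgeR (0.74, adjusted p = 0.0807), so no direction is given. The sign also turned without the Drosha-deficient replicate 2 (0.032).

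In the Dicer line the Ifih1 site had 3.30 and 3.79 RPM in control and 4.39 and 4.25 RPM in Dicer-deficient libraries, from 114 to 139 reads. Both deficient libraries were above both controls, as at 16.8% of all sites of this table, but the difference did not pass the test (log2 fold change 0.28, SE 0.36, 95% interval −0.58 to 1.15, limma adjusted p = 0.768). The Drosha effect minus the Dicer effect at Ifih1 was −0.44 (SE 0.49, 95% interval −1.55 to 0.66, limma adjusted p = 0.530 over the 2595 shared sites, of which 4.74% were called). Of all sites in the Dicer comparison 0% were called by limma and 0 by edgeR on the reads, while 459 (9.84%) had an unadjusted limma p under 0.05. The paper's own edgeR test does report sites lost in Dicer-deficient cells. Its count of sites lost in Drosha-deficient cells also differs from the counts here, and the reason was not tested.

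**Figure D3:**
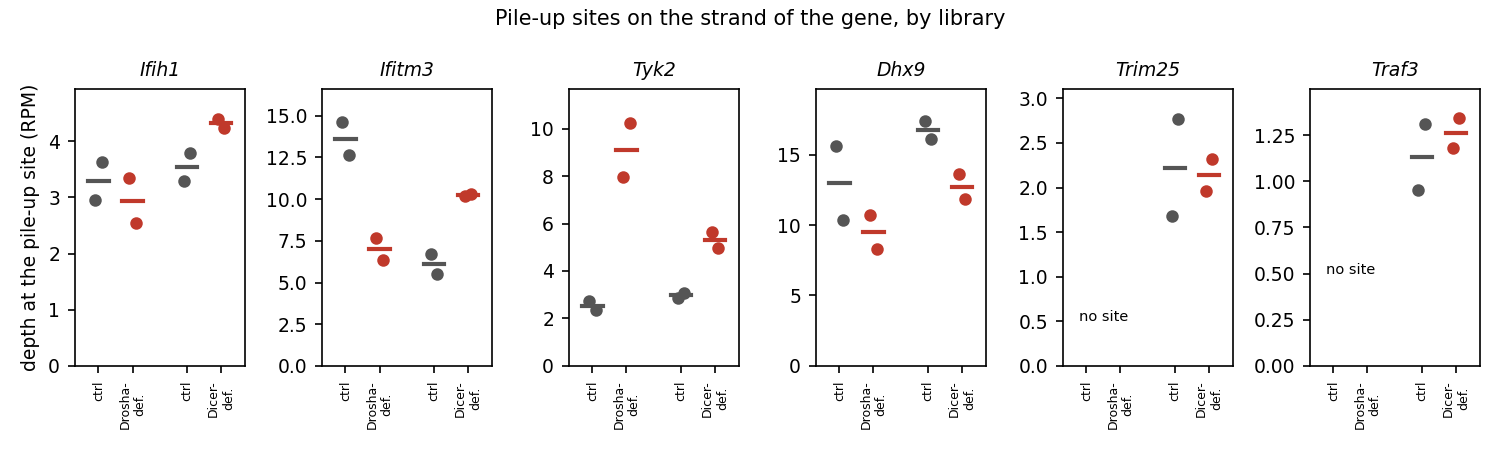
RPM at the sites that lie on the strand of the pathway gene, for each library (points) with the group mean (bar); control libraries are grey and deficient libraries red, with the Drosha line left and the Dicer line right in each panel. The Ifih1 points of the Drosha line overlap, both Drosha-deficient libraries at Tyk2 lie above 7 RPM and all other Tyk2 libraries below 6 RPM, and the Ifitm3 groups are ordered oppositely in the 2 lines.

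Genes around the 8 held further sites on their own strand, so that 4 sites were counted in the Drosha table (Ifih1, Tyk2, Ifitm3 and Dhx9) and 6 in the Dicer table (the same 4, Trim25 and Traf3). In the Drosha comparison 1 of the 4 was called higher and 0 lower, beside 9.57% and 37.6% of all sites, a background whose order turned with TMM scaling (780 sites higher and 636 lower). In the Dicer comparison 0 of 6 were called by limma or by edgeR, with or without TMM. None of the 6 had an unadjusted p under 0.05 with limma on all sites and libraries or with edgeR without TMM, and with TMM Ifitm3 (edgeR unadjusted p = 0.0366, adjusted p = 0.538) and Tyk2 (0.0414, adjusted p = 0.547) did. Groups did not overlap at 2 of 4 sites in the Drosha table, beside 81.1% of all sites, and at 4 of 6 in the Dicer table, beside 44.2%.

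The called site was in Tyk2, a kinase of the interferon receptor. It lies at chr9:21110133 on the minus strand, at the first base of intron 17 of 22 of the gene (chr9:21109428-21110133). The Trim25 site (chr11:89015818, plus strand) likewise lies at the first base of its last intron, 7 of 7. Both are shown from 8 bases upstream, with the first 6 bases of the intron in capitals (chr9:21110112-21110141 and chr11:89015810-89015839).
Tyk2: tgggtgagGTGAGGcctcggctagagagcg
Trim25: tctggagtGTGAGTagcttggctctgtggg
This position was also singled out after the sites were seen, and 233 sites (5.95%) of the Drosha table and 303 (6.49%) of the Dicer table lie at the first base of an annotated intron. Their median log2 fold changes were −0.65 and −0.19.

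At the Tyk2 site the control libraries of the Drosha line had 2.72 and 2.36 RPM and the Drosha-deficient libraries 7.97 and 10.2 RPM, from 69 to 294 reads. The value rose 3.46-fold (log2 fold change 1.79, SE 0.37, limma adjusted p = 0.000658). The call held in each alternative run, with log2 fold changes from 1.504 at a pseudocount of 1 RPM to 2.80 with TMM scaling. In the Dicer line the Tyk2 site had 2.87 and 3.09 RPM in control and 5.64 and 4.98 RPM in Dicer-deficient libraries, which did not overlap. That difference was not called (log2 fold change 0.81, SE 0.36, 95% interval −0.051 to 1.68, limma adjusted p = 0.507). The Drosha effect minus the Dicer effect was 0.98 (SE 0.47, limma adjusted p = 0.157), so the effects were not shown to differ.

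Ifitm3 held a site at chr7:141009888 on the minus strand. By the GENCODE vM21 annotation it lies at base 2 of the last exon (exon 2 of 2, chr7:141009586-141009889), in the coding sequence. The label deposited with this site does not place it in an exon. The window is shown because the reads start so close to the exon edge, with the first base of the reads in capitals (chr7:141009871-141009900).
Ifitm3: ttctgctccagtCtagggatcggaagatgg
In the Drosha line the control libraries had 14.6 and 12.6 RPM and the Drosha-deficient libraries 7.65 and 6.32 RPM. The log2 fold change was −0.96 (SE 0.35, limma adjusted p = 0.0232), short of the 1.5 needed for a call, and the median site of the table had −0.93. The adjusted p was 0.138 without control replicate 1, 0.0818 without control replicate 2 and 0.112 without Drosha-deficient replicate 2. With centring the Ifitm3 value was −0.36 (adjusted p = 0.251) and with TMM scaling −0.033 (adjusted p = 0.918). In the Dicer line the order was opposite, with 6.72 and 5.54 RPM in control and 10.2 and 10.3 RPM in Dicer-deficient libraries (log2 fold change 0.74, SE 0.33, limma adjusted p = 0.521).

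No difference at the remaining sites on the gene strand was called. Dhx9, a helicase that unwinds dsRNA, had a site in exon 15 of 28 (chr1:153467058, minus strand) with 15.7 and 10.4 RPM in control and 10.7 and 8.27 RPM in Drosha-deficient libraries, which overlapped (log2 fold change −0.43, SE 0.36, limma adjusted p = 0.304). With centring this value turned to 0.16 and with TMM scaling to 0.49. In the Dicer line Dhx9 had 17.4 and 16.1 RPM in control and 13.6 and 11.9 RPM in Dicer-deficient libraries (log2 fold change −0.40, SE 0.31, limma adjusted p = 0.643), so both deficient libraries were below both controls without passing the test. The Trim25 site, found only in the Dicer table, had 1.68 and 2.77 RPM in control and 1.96 and 2.32 RPM in deficient libraries (log2 fold change −0.016, SE 0.44, limma adjusted p = 0.991). The Traf3 site of the same table, in an intron of a ligase that binds MAVS, had 0.955 and 1.31 RPM in control and 1.18 and 1.34 RPM in deficient libraries (log2 fold change 0.16, SE 0.48, limma adjusted p = 0.912).

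**Figure D4:**
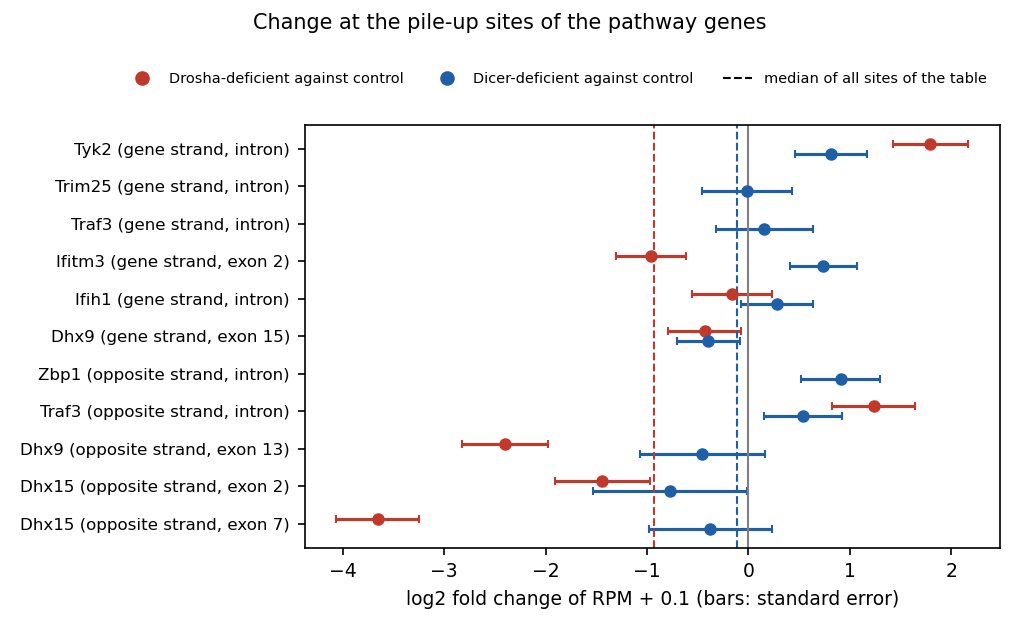
Log2 fold change (RPM + 0.1) with its standard error at each site in a pathway gene, for the Drosha comparison (red) and the Dicer comparison (blue), with the median of all sites of each table as a dashed line (−0.93 and −0.12). Tyk2 (1.79) lies farthest right, the site opposite Dhx15 in exon 7 (−3.65) farthest left, and Ifitm3 (−0.96) on the red dashed line.

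Counting sites on the opposite strand of the genes as well, 8 sites in the Drosha table and 11 in the Dicer table fell in pathway genes, and 2 were called lower and 1 higher in Drosha-deficient cells. The lower calls were opposite exons of the helicase genes Dhx15 and Dhx9. Opposite Dhx15 exon 7 of 14 (chr5:52162575, plus strand) the control libraries had 10.9 and 8.96 RPM and the Drosha-deficient libraries 0.548 and 0.869 RPM (log2 fold change −3.65, SE 0.41, limma adjusted p = 9.9e-06). Opposite Dhx9 exon 13 of 28 (chr1:153469694, plus strand) the control libraries had 10.04 and 5.17 RPM and the Drosha-deficient libraries 1.48 and 1.11 RPM (log2 fold change −2.40, SE 0.42, limma adjusted p = 0.000184). A second Dhx15 site (chr5:52184829, plus strand) had a log2 fold change of −1.44 (adjusted p = 0.0130), short of a call with limma and called with edgeR without TMM (−1.54, adjusted p = 0.0161) and without Drosha-deficient replicate 1 (−1.70, adjusted p = 0.00934). With TMM it was −0.62 (adjusted p = 0.246) and with centring −0.85 (adjusted p = 0.0909). All 3 are shown with the bases directly before the site in capitals (chr5:52162563-52162592, chr1:153469682-153469711 and chr5:52184817-52184846).
Dhx15, exon 7: accacaccgTCTattgtcaaagaggtctct
Dhx9, exon 13: ctcttctccTCTctcataagcaactcgctc
Dhx15, exon 2: ctctcccgtTCTctgtctcctctatcacgt
These bases are the same as the last 3 of the RNA linker ligated to the 5′ ends. TCT stood directly before 1208 sites (30.8%) of the Drosha table, where the log2 fold change had a median of −2.12, and 981 of the 1473 sites called lower were among them. In the Dicer table it stood before 813 sites (17.4%), with a median of 0.056. The part of the linker in these reads was not tested.

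The other opposite-strand sites held the GTGGTGGC stretch of the Ifih1 site. The Traf3 site (chr12:111194557-111194586, minus strand), the Traf3 site on the gene strand (chr12:111253515-111253544, plus strand) and the Zbp1 site (chr2:173218132-173218161, plus strand) are shown to compare the letters around it.
Traf3, opposite strand: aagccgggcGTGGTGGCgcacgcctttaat
Traf3, gene strand: aggctggtcGTGGTGGCgcacgcctgtaat
Zbp1, opposite strand: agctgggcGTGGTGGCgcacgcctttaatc
These 30 bases occurred 885 times for the first and 561 times for Zbp1 on the chromosomes searched, and the bases that follow in the reads were not searched. The opposite-strand Traf3 site had 1.39 and 1.37 RPM in control and 3.23 and 3.54 RPM in Drosha-deficient libraries (log2 fold change 1.23, SE 0.41, limma adjusted p = 0.0146), which was not called. It was called higher with centring (1.83, limma adjusted p = 0.00126) and with TMM (2.23, edgeR adjusted p = 0.000611). The Zbp1 site, found only in the Dicer table, had 1.88 and 1.66 RPM in control and 3.51 and 3.30 RPM in Dicer-deficient libraries (log2 fold change 0.91, SE 0.39, limma adjusted p = 0.507).

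The promoters of the 8 genes, from 250 bases before to 50 after the gene start in RefSeq (GRCm38.p6), were searched on both strands for GAAA, any 2 bases and GAAA again, a core of the interferon-stimulated response element. All 8 matched by symbol, and 5 held the letters, beside 3.44% of 32851 promoters. One stretch per gene is shown with the match in capitals, to compare the letters around it. Whether these letters act in the cells was not tested.
Ddx58, 2 bases after the start: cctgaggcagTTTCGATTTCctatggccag
Eif2ak2, 18 bases after the start: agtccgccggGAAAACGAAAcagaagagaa
Ifih1, 32 bases after the start: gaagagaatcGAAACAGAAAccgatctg
Isg15, 78 bases before the start: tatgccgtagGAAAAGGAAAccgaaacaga
Ifit1, 104 bases before the start: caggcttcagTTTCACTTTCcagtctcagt
They lie at chr4:40239804-40239833, chr17:78882535-78882564, chr2:62646206-62646233 and chr4:156200877-156200906 on the minus strand and at chr19:34640775-34640804 on the plus strand. Isg15 held 3 overlapping matches and Ifit1 held 2. No match was found for Mavs, Irf7 or Tlr3. The genes with a match spanned 0.239 CPM (Ifih1) to 37.2 CPM (Eif2ak2), and those without spanned 0.140 CPM (Tlr3) to 43.8 CPM (Mavs), so the mean levels did not separate by the match. In the lists, 10 of 22 interferon-stimulated genes with a promoter sequence and 3 of 5 of the OAS list held a match. For interferon and signalling genes it was 4 of 19, for other sensors 1 of 11 and for the list around MAVS 0 of 9.

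Drosha and Dicer make the miRNAs of these cells, and the authors report that Drosha also cleaves stem-loops in mRNAs directly. For the miRNA route only, the annotated 3′UTRs of the 8 genes (GENCODE vM21) were searched for 7-base matches to miRNA seeds (bases 2 to 8, in capitals). The seeds were those of miRNAs known from ESCs and of miR-673-5p. The members of the miR-290 cluster shown first share the seed AAGUGCU, and that of miR-17-5p is shifted by 1 base.
miR-291a-3p: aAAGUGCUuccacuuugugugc
miR-294-3p: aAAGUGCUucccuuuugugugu
miR-295-3p: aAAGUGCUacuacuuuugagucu
miR-17-5p: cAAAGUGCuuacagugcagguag
miR-16-5p: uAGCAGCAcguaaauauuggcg
miR-673-5p: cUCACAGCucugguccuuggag
The AAGUGCU seed had 1 match in Tlr3 and 1 in Eif2ak2, beside 14.7% of 21028 annotated 3′UTRs. The miR-17-5p seed had 1 match in Ifit1 and 1 in Eif2ak2, the latter overlapping the first, beside 11.7% of 3′UTRs. These shares were not adjusted for length, and the median of the 21028 3′UTRs was 960.5 bases, shorter than each 3′UTR with a match. The matches are shown with the paired letters in capitals.
Tlr3 (AAGUGCU): tcataaattgcaagtAGCACTTggatctcg
Eif2ak2 (AAGUGCU): ctcgctgcttctcaaAGCACTTtggacctt
Ifit1 (miR-17-5p): tgcaggcatattgtgGCACTTTtatcctgg
They lie at chr8:45396929-45396958 and chr17:78852756-78852785 on the minus strand and chr19:34649752-34649781 on the plus strand, and start 423, 2369 and 910 bases into 3′UTRs of 1496, 2575 and 1152 bases. For miR-16-5p (20.3% of 3′UTRs) and miR-673-5p (14.8%) no match was found in the 8 genes, and Mavs, Ddx58, Ifih1, Irf7 and Isg15 held none for any seed searched. No match says only that these letters are not in the annotated 3′UTR used.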

How the data were processed

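The authors prepared Degradome-seq libraries from polyA RNA, trimmed the reads with Trimmomatic (0.38.0) and aligned them with STAR to GRCm38. They picked pile-up sites by a classifier that had learned from miRNA loci, and kept those it found in both control replicates. They deposited RPM of mapped reads for each library. For RNA-seq the authors aligned stranded mRNA libraries with STAR, tested genes with edgeR (3.26.1) and deposited 1 table with the mean log2 CPM over the 6 libraries. The tables also hold the authors' own log2 fold changes, F statistics, p-values and FDR, which were not used here. The counting tool and strand setting of RNA-seq are not given in the sources used here.

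CPM per kb used the longest GENCODE vM21 transcript (22353 of 22376 genes). Sites were assigned to genes on the same strand, or on either strand as an alternative. RPM was tested as log2(RPM + 0.1) with limma 3.58.1 (R 4.3.3), with a mean-variance trend and Benjamini-Hochberg adjustment over all 3919 or 4666 sites. All RPM values (100%) were whole reads within 0.05 read, and edgeR 4.0.16 (quasi-likelihood) on these reads, with and without TMM, was added after the data were seen. It called 1525 sites lower and 384 higher in the Drosha table without TMM and 636 and 780 with it (limma 1473 and 375), and 0 in the Dicer table. The count test was an alternative because the deposited unit is RPM. A floor of 3 reads is 0.0868 to 0.105 RPM, for counting error only. The difference between the 2 lines was tested with limma at 2595 shared sites, also added after the data were seen. The limma fit of each table and the edgeR fit without TMM were run on simulated data in which most sites were unchanged. Such data cannot show how the fits behave in the Drosha table, where the median site moved by −0.93. The fit with TMM and the test of the difference were not simulated.

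The genes named are the 8 genes, the highest and lowest gene of each list, list genes with a site, Drosha and Dicer1; Dhx58, Ticam1, Adar, Irf3, Jak1, Stat2, Ifitm1 and Bst2 were chosen after their values were seen. The genes and lists were chosen with earlier results of these data known, and 2 genes of the lists are not reported here. Python 3.11.15, pandas 2.3.3 and numpy 2.4.6 were used. Alternatives changed the pseudocount, filter, scaling, trend, block, strand, reference genes and libraries.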

Additional observations from a re-analysis of the deposited data

Results flagged for a closer look

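In RPM the Ifitm3 site was ordered oppositely in the 2 lines, and it was picked for this order. Both Drosha-deficient libraries were below both of their controls, and both Dicer-deficient libraries were above both of theirs. The difference of the effects (Drosha minus Dicer) was −1.70 on the log2 scale (SE 0.44, 95% interval −2.69 to −0.71), and its limma adjusted p over the 2595 shared sites was 0.0562. Without Dicer control replicate 1 this p was 0.0172, without the other libraries it ran up to 0.188, and with centring the difference was −1.18 (adjusted p = 0.0727). Because the site was picked for its order, this test is no independent support. The groups of the Drosha line alone were separated at 81.1% of all its sites. Both Dicer-deficient libraries were above both controls at 16.8% of the sites of that line, and the share of sites with opposite order was not counted. In the Drosha line the Ifitm3 log2 fold change was −0.96 beside −0.93 for the median site, and −0.033 with TMM scaling.

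The site opposite Dhx15 exon 7 differed between the lines by the test of the difference (−3.28, SE 0.77, limma adjusted p = 0.0487). The adjusted p ranged from 0.00897 to 0.160 over the libraries left out, and the call was lost without any 1 of 6 libraries and kept only without Dicer control replicate 1 or Dicer-deficient replicate 2. It was also lost without the variance trend (0.0714) and at a pseudocount of 1 RPM (−2.38, adjusted p = 0.05002). In the same test 4.74% of shared sites were called, but 0 without any 1 library of the Drosha line or without Dicer-deficient replicate 1, and 3 without the variance trend. This site has TCT directly before it, and the part of the linker was not tested.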

How the results depend on the processing

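At the sites on the gene strand the counts of calls (1 in the Drosha and 0 in the Dicer comparison) were the same in every alternative that changed the pseudocount, filter, scaling, trend, tool or libraries. With sites on either strand limma called 2 lower and 1 higher in the Drosha comparison, edgeR without TMM 3 and 1, edgeR with TMM 2 and 2, limma with centring 2 and 2, and limma without Drosha-deficient replicate 1 gave 3 and 1, while the Dicer count was 0 in each. Over 304 single-site alternatives, 267 kept direction and side of the threshold, 16 changed side and 21 changed sign; none of the Tyk2 alternatives changed either.

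Sign changes with scaling in the Drosha comparison were Ifih1 (0.43 with centring, 0.74 with TMM) and Dhx9 on the gene strand (0.16 and 0.49), and in the Dicer comparison Trim25 (0.080 with TMM). In the difference between the lines, centring turned Ifih1 (0.070) and Dhx9 on the gene strand (0.48). Leaving out 1 library gave −0.36 to 0.032 for Ifih1 in the Drosha comparison. In the Dicer comparison it gave −1.09 to 0.33 for Dhx15 exon 7, −1.64 to 0.091 for Dhx15 exon 2, −1.12 to 0.21 for Dhx9 exon 13, −0.053 to 0.37 for Traf3 and −0.36 to 0.33 for Trim25. For the difference it gave −1.53 to 0.20 for Dhx15 exon 2 and −0.33 to 0.26 for Dhx9 on the gene strand. The cause of the sign changes was not tested.

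Percentiles of the members moved with the genes ranked. Among genes with a full name, Mavs stood at 67.1, Eif2ak2 at 63.2, Ddx58 at 34.3, Ifih1 at 8.81, Irf7 at 8.40 and Tlr3 at 2.18. Among genes of at least 1 CPM, Mavs stood at 63.1, Eif2ak2 at 58.8 and Ddx58 at 23.0, and the other genes gave no value. Per kb, the percentiles were 76.0 for Mavs, 67.6 for Eif2ak2, 42.0 for Ddx58, 2.32 for Ifih1, 5.88 for Irf7 and 1.08 for Tlr3. With genes not found placed at the lowest level, the medians were −2.09 log2 CPM for the 8 genes, 3.03 for interferons and signalling, −0.78 for interferon-stimulated genes and −2.46 for macrophage and blood markers. That placement is an assumption, since the levels of the genes not found, Isg15 and Ifit1 among them, were not analysed here.

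Replicate numbers are shared between groups, but no source says that they pair the libraries. Deviations of same-numbered libraries correlated at 0.13 over the sites of the Drosha table and 0.53 over those of the Dicer table, with 2 pairs each. With the number as a block, 1 site on the gene strand was called in the Drosha comparison and 0 in the Dicer comparison, the difference at Ifitm3 was called (−1.70, adjusted p = 0.000992), and so was that opposite Dhx9 exon 13 (−1.94, adjusted p = 0.000715). Over the whole Dicer table the block gave 67 sites lower and 119 higher, where limma without it gave 0, and for the difference between the lines 805 lower and 249 higher, where limma without it gave 44 and 79. The main limits are 2 libraries per arm, mean levels without spread for RNA-seq, and a Drosha table in which the median site moved by −0.93 (−0.34 with centring, −0.034 with TMM).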
